A study of Homo sapiens with 40 samples.

Results

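The unfolded protein response (UPR) is carried by a small set of sensors and regulators, and 10 of their genes were described here: ERN1, XBP1 and RTCB of the IRE1 arm, ATF6, ATF6B and CREB3L2 among the membrane-bound transcription factors, the proteases MBTPS1 and MBTPS2 that release such factors, and EIF2AK3 and PPP1R15A of the PERK arm. They were chosen by name, with earlier results of these data known, and matched by Ensembl identifier. All 10 were found among the 19962 genes of the count table, and all 10 passed the filter on low counts that kept 11428 genes for testing. The study measured polyadenylated RNA in RKO, a human colorectal carcinoma cell line, after loss of IGF2BP2 or IGF2BP3, paralogous RNA-binding proteins. Every line carried a doxycycline-inducible Cas9, GFP and a BFP-marked vector expressing a pair of guide RNAs, and was a sorted population of transduced cells. The vector targeted AAVS1, a safe-harbour locus (sgAAVS1), IGF2BP2 (sgIGF2BP2) or IGF2BP3 (sgIGF2BP3). Each line was given the solvent DMSO or doxycycline (Dox, 250 ng/mL for 72 hours). The sgIGF2BP2 and sgIGF2BP3 lines also received, in groups whose labels name no Dox, a non-targeting siRNA (siControl) or an siRNA pool against the gene their guides target (siIGF2BP2 or siIGF2BP3, 75 nM) for 48 hours. All 10 groups had 4 libraries, each from a well of cells, and all cells were fed 4-thiouridine (250 µM for 2 hours) before harvest. Conversions at that label were not analysed here.

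The UPR reports the load of unfolded protein in the endoplasmic reticulum (ER) to the nucleus and to the ribosome. IRE1, encoded by ERN1, is an ER membrane kinase and nuclease that cuts an intron out of the XBP1 mRNA in the cytosol, and the tRNA ligase RTCB rejoins the ends so that the active factor XBP1s is made. ATF6 and ATF6B travel to the Golgi, where the site-1 protease (MBTPS1) and the site-2 protease (MBTPS2) free their transcription factor domains. The related CREB3L2 is cut in the same way. PERK, encoded by EIF2AK3, phosphorylates the translation factor eIF2, and PPP1R15A (GADD34) brings phosphatase 1 back to eIF2. RNA levels do not report splicing, cleavage or phosphorylation, which are the usual readouts of these sensors.

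The sequence that IRE1 and RTCB act on is shown because it defines what a count of XBP1 does and does not hold. It was read from an XBP1 transcript of GENCODE 29 (GRCh38) with a total of 1850 bases. The bases in capitals are bases 570 to 595, at chr22:28796124-28796149 on the reverse strand. They are the 26 bases from the end of a CNGCAG cut site (N is any base) to the end of the next. Lower case marks the 20 bases on either side. The letters do not fix the cut within a site. Cuts before the CAG of both sites take out 26 bases that start earlier, and the joined sequence is the same.
XBP1 intron and flanks: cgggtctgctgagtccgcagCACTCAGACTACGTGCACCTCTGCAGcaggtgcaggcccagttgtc
The length of 26 leaves a remainder of 2 when divided by 3, so removal shifts the reading frame, and the predicted protein lengthens from 261 to 376 residues. A pair of CNGCAG cut sites with this spacing occurs in 393 of 19684 genes with a coding transcript (1.997%, a search of the letters alone). The counts are sums per gene, so spliced and unspliced XBP1 mRNA were counted together.

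Promoter windows of 300 bases, from 250 before to 50 after a RefSeq transcription start (GRCh38.p14), were searched on both strands for motifs of UPR factors: the ER stress element (ERSE, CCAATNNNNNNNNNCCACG), the UPR element (UPRE, TGACGTGG), the cAMP response element (CRE, TGACGTCA) and the C/EBP-ATF element (TTGCATCA). The 10 genes have 12 such windows. The 3 windows that hold a full match are shown, with the match in capitals.
XBP1 promoter 1, chr22:28800520-28800819, reverse strand: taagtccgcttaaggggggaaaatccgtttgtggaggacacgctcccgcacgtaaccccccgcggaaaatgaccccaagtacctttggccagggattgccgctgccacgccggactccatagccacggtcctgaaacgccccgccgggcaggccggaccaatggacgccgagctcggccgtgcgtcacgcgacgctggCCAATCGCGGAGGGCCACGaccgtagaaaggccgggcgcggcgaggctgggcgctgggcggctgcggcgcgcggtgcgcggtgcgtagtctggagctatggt
PPP1R15A promoter, chr19:48872171-48872470, forward strand: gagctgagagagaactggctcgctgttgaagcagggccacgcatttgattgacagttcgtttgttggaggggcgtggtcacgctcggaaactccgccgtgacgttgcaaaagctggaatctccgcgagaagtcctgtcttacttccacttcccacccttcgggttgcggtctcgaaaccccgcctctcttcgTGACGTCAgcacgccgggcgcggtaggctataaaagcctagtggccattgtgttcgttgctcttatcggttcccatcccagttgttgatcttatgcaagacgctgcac
CREB3L2 promoter 1, chr7:138002037-138002336, reverse strand: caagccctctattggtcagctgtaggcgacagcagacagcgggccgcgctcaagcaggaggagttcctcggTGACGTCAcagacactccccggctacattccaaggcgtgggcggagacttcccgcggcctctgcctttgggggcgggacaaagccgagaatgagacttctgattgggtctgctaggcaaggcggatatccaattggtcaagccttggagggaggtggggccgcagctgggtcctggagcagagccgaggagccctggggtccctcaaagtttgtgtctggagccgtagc
The XBP1 window holds the ERSE, which begins 52 bases before the start and occurs in 27 of 35116 windows genome-wide (0.077%). PPP1R15A and CREB3L2 each hold a CRE, beginning 58 and 179 bases before the start, a motif of 1.848% of all windows. The UPRE (0.729% of all windows) and the C/EBP-ATF element (0.866%) were found in none of the 12 windows. The short core of the ERSE, CCACG, is part of the ERSE and stands in 38.088% of all windows. It occurs in the windows of XBP1, CREB3L2, MBTPS1, EIF2AK3 and PPP1R15A. These are matches of letters and not measured binding.

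The levels of the 10 genes spanned a wide range when counts scaled to a common library size (CPM, with library sizes adjusted by edgeR's TMM method) were divided by the kilobases of merged exons. PPP1R15A was the most abundant at 88.7 CPM per kb over the 40 libraries, above 96.13% of the tested genes. RTCB followed at 40.3, XBP1 at 17.8 and ATF6B at 16.5 CPM per kb. ATF6, MBTPS1 and CREB3L2 lay between 10.00 and 12.1 CPM per kb. The sensors ERN1 (1.66 CPM per kb) and EIF2AK3 (1.53) and the protease MBTPS2 (1.55) were the scarcest, each above 20.64% to 22% of the tested genes. The median of the tested genes was 5.89 CPM per kb. For EIF2AK3 this scarcity meant 75 to 178 counts per library and for MBTPS2 115 to 351, whereas PPP1R15A had 2796 to 6434, so small changes of the scarce genes are the least precisely measured.

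**Figure D1:**
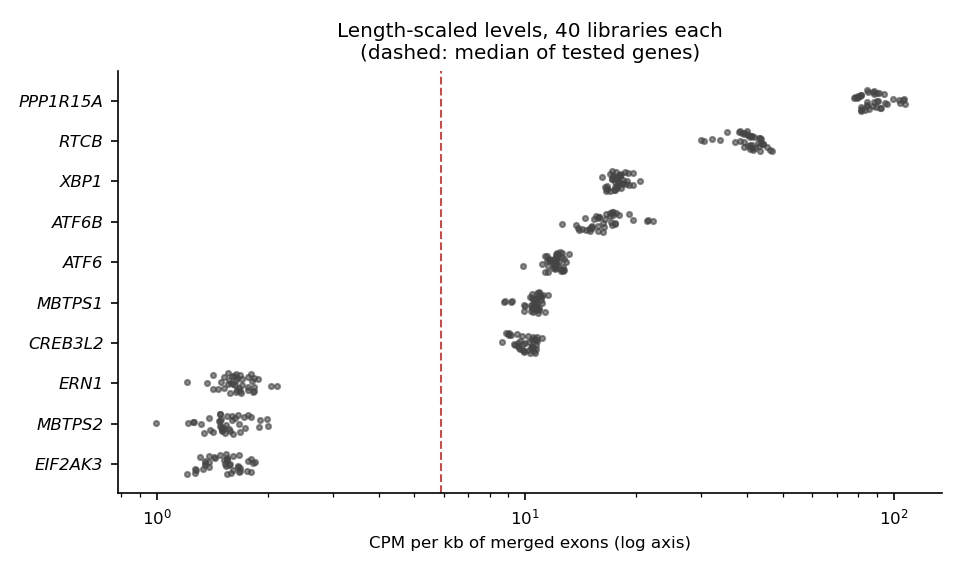
Level of each gene in each of the 40 libraries (points) in CPM per kilobase of merged exons on a log axis, with the median of the tested genes as a dashed line. PPP1R15A, at a mean of 88.7, lies far above ERN1, MBTPS2 and EIF2AK3, which lie between 1.53 and 1.66 and below the median of 5.89.

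The genes lie on different chromosomes except XBP1 and RTCB. In GENCODE 29 (GRCh38), ERN1 (ENSG00000178607) spans chromosome 17, 64039142 to 64130819, XBP1 (ENSG00000100219) chromosome 22, 28794555 to 28800597, and RTCB (ENSG00000100220) chromosome 22, 32387582 to 32412255, all on the reverse strand. ATF6 (ENSG00000118217) spans chromosome 1, 161766294 to 161964070, on the forward strand, ATF6B (ENSG00000213676) chromosome 6, 32115264 to 32128253, and CREB3L2 (ENSG00000182158) chromosome 7, 137874979 to 138002067, both on the reverse strand. MBTPS1 (ENSG00000140943) spans chromosome 16, 84053761 to 84116906, reverse strand, and MBTPS2 (ENSG00000012174) chromosome X, 21839636 to 21885424, forward strand. EIF2AK3 (ENSG00000172071) spans chromosome 2, 88556741 to 88627576, reverse strand, and PPP1R15A (ENSG00000087074) chromosome 19, 48872392 to 48876057, forward strand. MBTPS2 shares 1093 of its 8927 exon bases with YY2 and 102 with RF00019, both on the same strand. ATF6B shares 71 of 3629 with TNXB and 289 with AL662884.2, also on the same strand. RF00019 and AL662884.2 are not in the count table. The counts of MBTPS2 and ATF6B are uncertain to that extent. EIF2AK3 shares 781 and 38 bases with a pair of antisense genes, and the strand setting of the counting is not given in the sources used here.

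Total counts per library ran from 10018181 to 24822807. The targeted genes fell under both routes of depletion: IGF2BP2 from 85.3 ± 1.58 to 33.9 ± 3.50 CPM (SD, n = 4) after Dox and from 108 ± 4.10 to 30.2 ± 1.08 CPM after siRNA, and IGF2BP3 from 180.2 ± 4.09 to 56.2 ± 3.62 and from 169.8 ± 4.78 to 24.8 ± 1.56 CPM. IGF2BP3 also fell after Dox in sgIGF2BP2 cells (log2 fold change −0.25, edgeR adjusted p = 2.93e-06). In sgAAVS1 cells Dox lowered SPOP, a gene on 17q that no label names, from 36.7 ± 1.48 to 11.4 ± 1.22 CPM, which bears on ERN1 below. Of 10 colon epithelial markers, EPCAM, KRT8, KRT18 and CDX2 reached 1 CPM, while KRT19, KRT20, CDH1, VIL1, LGR5 and MUC2 stayed under 0.1 CPM. Summed fibroblast, immune and endothelial markers reached at most 1.098, 3.62 and 0.452 CPM in any library.

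Among the 10 genes, 9 varied over the 10 groups in edgeR's quasi-likelihood F test (Benjamini-Hochberg adjusted p under 0.05), where 71.1% of all tested genes did. The exception was EIF2AK3 (edgeR adjusted p = 0.0844). Dox in sgAAVS1 cells changed 3 of the 10 (2 higher, 1 lower), beside 15.9% of all tested genes. Dox in sgIGF2BP2 cells changed 4 (3 higher, 1 lower), beside 20.4%. The siRNA against IGF2BP2 changed 6 (2 higher, 4 lower), beside 36.8%, the largest number among the 5 treatments. Loss of IGF2BP3 passed the test for 0 of the 10 by either route, beside 2.64% of all tested genes after Dox and 2.34% after siRNA. At an unadjusted p under 0.05, edgeR gave 0 and 1 of the 10 there, beside 16.608% and 13.808% of all tested genes. DESeq2 called 0 of the 10 in both. The median log2 fold change of the 10 genes was 0.03, 0.09 and 0.02 after Dox in the sgAAVS1, sgIGF2BP2 and sgIGF2BP3 lines, −0.03 after siIGF2BP2 and −0.05 after siIGF2BP3, while that of all tested genes lay between 0.00 and 0.01. The changes were small: the largest, a fall of MBTPS2, was 0.49 on the log2 scale. In bulk RNA, fewer cells expressing a gene and less RNA per cell cannot be told apart.

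**Figure D2:**
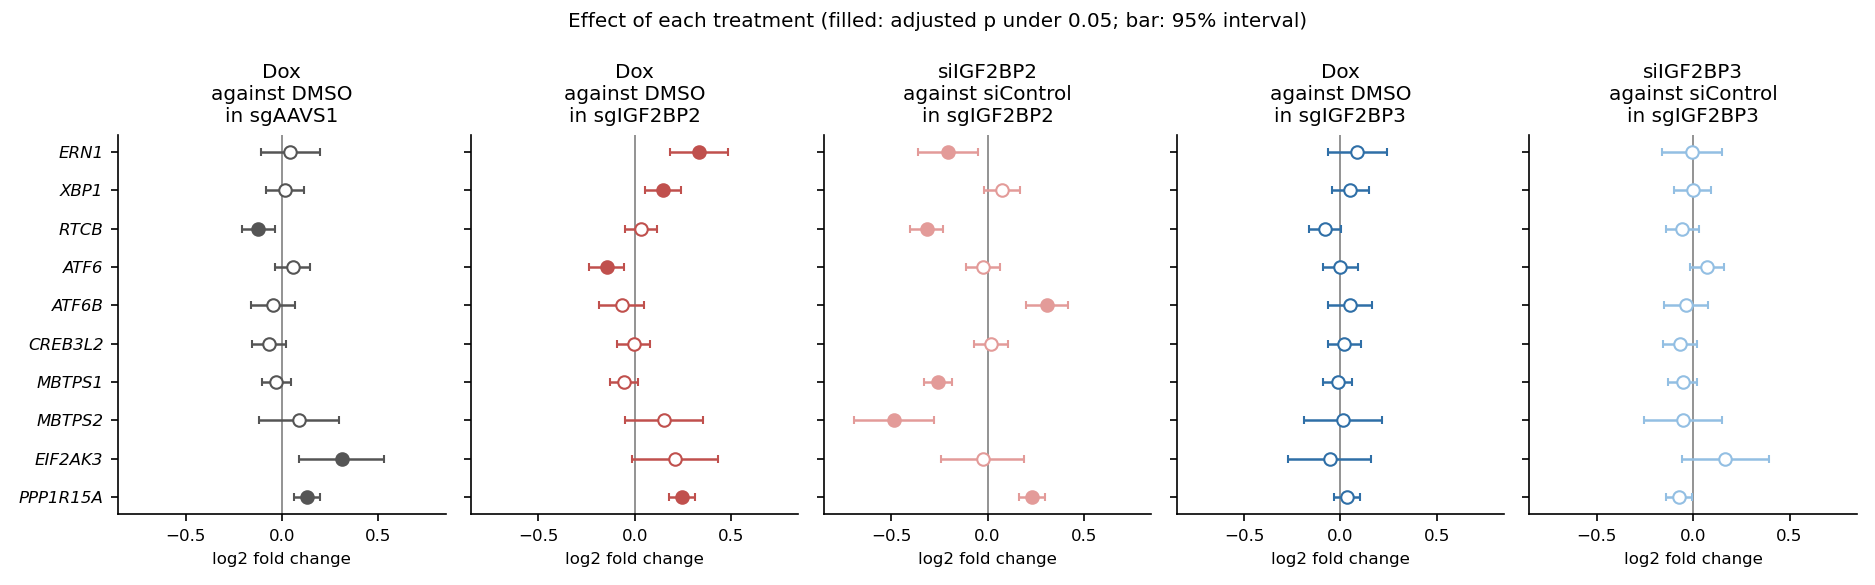
Log2 fold change of each gene (points, with 95% intervals) in the 5 treatment comparisons, filled where the edgeR adjusted p is under 0.05. Filled points number 3, 4 and 6 for Dox in sgAAVS1, Dox in sgIGF2BP2 and siIGF2BP2, and 0 in both IGF2BP3 panels, where the siIGF2BP3 interval of PPP1R15A is the only one to exclude 0.

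ERN1, the IRE1 sensor, moved in opposite directions under the 2 routes of IGF2BP2 depletion. In sgIGF2BP2 cells it stood at 15.97, 15.4, 16.5 and 18.2 CPM in the 4 DMSO libraries and at 19.99, 19.2, 22.97 and 22.1 CPM with Dox. All Dox libraries lay above all DMSO libraries, a rise of 0.33 on the log2 scale (SE 0.076, edgeR adjusted p = 0.000674). With siControl it stood at 18.5, 17.7, 16.9 and 17.5 CPM and with siIGF2BP2 at 17.3, 14.9, 13.1 and 16.2 CPM. Here the groups overlapped only because the highest siIGF2BP2 library stood above the lowest siControl library, and the log2 fold change was −0.20 (SE 0.0785, edgeR adjusted p = 0.0343). This fall missed the threshold when single libraries were left out, with edgeR values of −0.18 with adjusted p = 0.108 without siControl replicate 1, −0.20 with adjusted p = 0.0559 without siControl replicate 2, −0.19 with adjusted p = 0.0782 without siIGF2BP2 replicate 2 and −0.14 with adjusted p = 0.199 without siIGF2BP2 replicate 3. It also missed it in a fit of these 2 groups alone (edgeR adjusted p = 0.0633). The rise after Dox kept its call in all 14 alternatives. The highest and the lowest ERN1 means of the 10 groups, 21.1 ± 1.77 and 15.4 ± 1.82 CPM (SD, n = 4), were both from the sgIGF2BP2 line. The rise after Dox started from a low DMSO mean of 16.5 ± 1.19 CPM, rank 9 of the 10 groups. With DMSO the sgAAVS1 and sgIGF2BP3 means were 18.3 ± 1.13 and 18.3 ± 1.14 CPM. The sgIGF2BP2 difference from sgAAVS1 with DMSO was −0.14 on the log2 scale and did not pass (edgeR adjusted p = 0.775). All neighbours in the order of group means lay within the larger SD of the pair.

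In the other lines ERN1 did not pass the test. In sgIGF2BP3 cells it stood at 19.7, 17.9, 17.03 and 18.5 CPM with DMSO and 20.5, 20, 17.98 and 19.3 CPM with Dox, and at 16.5, 17.4, 17.6 and 18.3 CPM with siControl and 15.4, 17.9, 19.5 and 16.9 CPM with siIGF2BP3. Both pairs of groups overlapped, and the 95% intervals of the log2 fold change were −0.06 to 0.24 and −0.16 to 0.15. In sgAAVS1 cells it stood at 17.2, 18.4, 19.8 and 17.8 CPM with DMSO and 19.97, 18.2, 19.2 and 17.9 CPM with Dox (log2 fold change 0.04, edgeR adjusted p = 0.755). ERN1 lies on 17q beyond SPOP, a stretch whose genes were lower after Dox in that line. Of 249 other tested genes from SPOP to the end of 17q, 130 were called lower and 1 higher there, with a median of −0.18, and ERN1 lay above 231 of them. The 26 tested genes within 2 Mb of ERN1 had a median of −0.16. After Dox in sgIGF2BP2 cells the medians of the same 249 and 26 genes were 0.01 and −0.01, with ERN1 above 233 and 25 of them. The Dox effect on ERN1 in sgIGF2BP2 cells exceeded that in sgAAVS1 cells by 0.29 (95% interval 0.07 to 0.51), which did not pass (edgeR adjusted p = 0.0883). The 249 neighbours had a median of 0.20 in that difference. The part of the 17q shift in this difference was not tested.

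**Figure D3:**
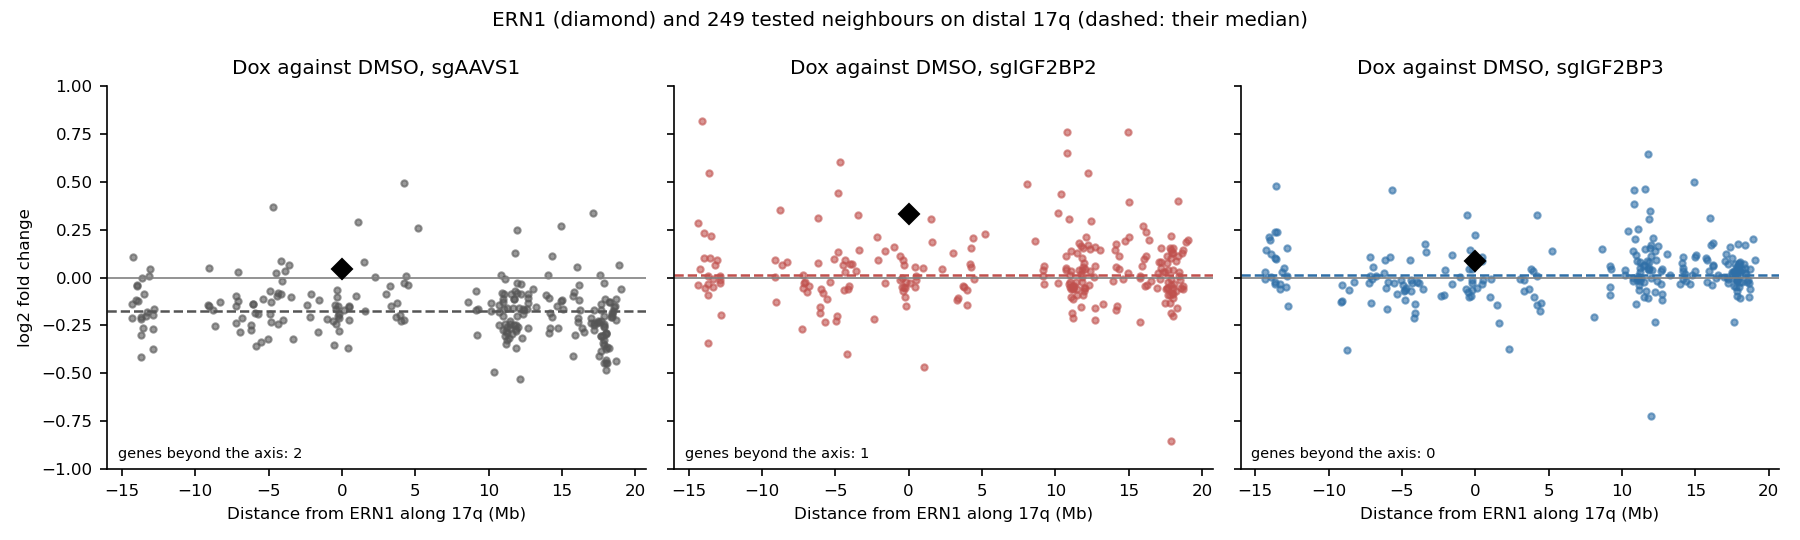
Log2 fold change after Dox of ERN1 (diamond) and 249 tested genes from SPOP to the end of 17q (points), by distance from ERN1, with their median dashed and genes beyond the axis counted in each panel. The medians are −0.18, 0.01 and 0.01 in the sgAAVS1, sgIGF2BP2 and sgIGF2BP3 lines, and ERN1 stands at 0.04, 0.33 and 0.09.

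XBP1, the transcription factor of the IRE1 arm, rose with ERN1 after Dox in sgIGF2BP2 cells. It stood at 53.05, 49.9, 53.7 and 50.4 CPM with DMSO and at 57.8, 59.4, 56.98 and 55.3 CPM with Dox. The groups did not overlap (log2 fold change 0.15, SE 0.0475, edgeR adjusted p = 0.0195). The call was lost without any 1 of 3 libraries, with edgeR values of 0.13 with adjusted p = 0.0602 without DMSO replicate 2, 0.13 with adjusted p = 0.0632 without DMSO replicate 4 and 0.13 with adjusted p = 0.0828 without Dox replicate 2, and when only these 2 groups were fitted (edgeR adjusted p = 0.0577). With siControl and siIGF2BP2 it stood at 54.4, 55.7, 52.99 and 54.2 and at 57.2, 62.1, 53.8 and 55.9 CPM, which overlapped (log2 fold change 0.07, edgeR adjusted p = 0.222). The group means of XBP1 ran from 51.7 ± 2.001 to 57.4 ± 1.72 CPM, a ratio of 1.11, and no neighbours in that order differed by more than their SD. In sgAAVS1 cells the means were 51.9 ± 1.37 and 52.5 ± 2.32 CPM without and with Dox, and in sgIGF2BP3 cells 51.7 ± 2.001, 53.6 ± 1.27, 55.1 ± 3.31 and 54.8 ± 2.48 CPM with DMSO, Dox, siControl and siIGF2BP3.

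RTCB, the ligase that completes XBP1 splicing and tRNA splicing, fell after siIGF2BP2. It stood at 126, 116, 109 and 113 CPM with siControl and at 89.9, 88.5, 99.7 and 94.96 CPM with siIGF2BP2. Every siIGF2BP2 library lay below every siControl library, and RTCB fell by 0.32 on the log2 scale, or fell by 19.6% (SE 0.0435, edgeR adjusted p = 1.44e-08). This group was the lowest of all 10 and did not overlap its nearest neighbour, siIGF2BP3 at 112 ± 5.92 CPM (SD, n = 4). With Dox the same line showed no such fall: 134, 127, 118 and 122 CPM with DMSO and 120.0, 130.4, 131 and 129 CPM with Dox (log2 fold change 0.03, 95% interval −0.05 to 0.12). In sgAAVS1 cells RTCB stood at 128, 138, 136 and 122 CPM with DMSO and at 119.8, 124, 121 and 116 CPM with Dox, overlapping groups with a log2 fold change of −0.12 (edgeR adjusted p = 0.038). That call was lost on leaving out 1 of 5 libraries, with edgeR values of −0.10 with adjusted p = 0.153 without DMSO replicate 2, −0.11 with adjusted p = 0.126 without DMSO replicate 3, −0.12 with adjusted p = 0.0795 without Dox replicate 1, −0.13 with adjusted p = 0.0506 without Dox replicate 3 and −0.11 with adjusted p = 0.115 without Dox replicate 4. In sgIGF2BP3 cells Dox moved it from 129, 127, 128 and 124 to 120.0, 121, 121 and 118 CPM. Those groups did not overlap, but the difference missed the threshold (log2 fold change −0.08, edgeR adjusted p = 0.335). After siIGF2BP3 it was −0.06 (95% interval −0.14 to 0.03).

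Of the membrane-bound factors, ATF6 passed the test after Dox in sgIGF2BP2 cells, and its paralogue ATF6B passed it after siIGF2BP2. ATF6, the main ATF6 sensor, stood at 96.1, 93.9, 99.7 and 95.2 CPM with DMSO and at 91.05, 77.9, 94.2 and 87.4 CPM with Dox in sgIGF2BP2 cells. The groups overlapped by a narrow margin, and the second Dox library was the lowest of all 40 (log2 fold change −0.15, SE 0.045, edgeR adjusted p = 0.0135). Without Dox replicate 2 the value was −0.09 (edgeR adjusted p = 0.183), and without DMSO replicate 3 it was −0.13 (adjusted p = 0.0716). After siIGF2BP2 ATF6 stood at 102, 93.8, 90.4 and 91.3 CPM beside 96.4, 93.8, 95.8 and 97.4 CPM with siControl, overlapping groups with an interval of −0.11 to 0.06. It stood at 94.7 ± 5.29 and 98.5 ± 2.303 CPM (SD, n = 4) in sgAAVS1 cells without and with Dox, and the group means of sgIGF2BP3 cells were 95.2 ± 4.15, 95.2 ± 3.796, 94.3 ± 3.41 and 99.2 ± 3.22 CPM with DMSO, Dox, siControl and siIGF2BP3. No neighbours in its order of means differed by more than their SD. The log2 intervals there were −0.09 to 0.09 for Dox and −0.02 to 0.16 for siIGF2BP3.

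ATF6B, reported as a weaker activator than ATF6, rose after siIGF2BP2. It stood at 63.7, 63.8, 59.00 and 61.9 CPM with siControl and at 77.9, 80.8, 71.02 and 78.3 CPM with siIGF2BP2. All siIGF2BP2 libraries were above all siControl libraries, a log2 rise of 0.31 or 23.9% (SE 0.0541, edgeR adjusted p = 3.98e-06). This group was the highest of the 10 and did not overlap the next, siControl in sgIGF2BP3 cells. The 4 groups given an siRNA led the order, and the lowest of them, siControl in sgIGF2BP2 cells, differed from Dox in sgIGF2BP3 cells by more than their SD. Dox in the same line left overlapping groups, 50.4, 59.4, 54.7 and 57.2 CPM with DMSO and 54.95, 49.9, 62.5 and 45.8 CPM with Dox, the widest spread of ATF6B in any group (log2 fold change −0.07, edgeR adjusted p = 0.45). In sgAAVS1 cells ATF6B was at 55.4 ± 3.65 and 53.5 ± 1.43 CPM (SD, n = 4) without and with Dox. In sgIGF2BP3 cells it was at 56.3 ± 2.88 and 58.2 ± 2.24 CPM without and with Dox, and at 64.3 ± 3.92 and 62.7 ± 1.13 CPM with siControl and siIGF2BP3. The log2 intervals for the 2 IGF2BP3 depletions were −0.06 to 0.16 and −0.15 to 0.07.

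CREB3L2, a factor that is cut by the same proteases and is known for secretory cargo genes, passed the test in none of the 5 treatments. In sgIGF2BP2 cells it stood at 94.3, 84.8, 90.9 and 91.5 CPM with DMSO and 92.2, 83.96, 91.5 and 93.9 CPM with Dox, and at 82.4, 86.8, 81.8 and 83.8 CPM with siControl and 87.9, 89.7, 76.2 and 85.2 CPM with siIGF2BP2. The intervals of the log2 fold change were −0.09 to 0.08 and −0.07 to 0.10. In sgIGF2BP3 cells the means were 93.2 ± 1.19, 94.5 ± 2.39, 83.8 ± 4.73 and 79.9 ± 2.35 CPM (SD, n = 4) with DMSO, Dox, siControl and siIGF2BP3. All 4 groups given an siRNA had lower CREB3L2 means than all 6 groups without one, and the comparison of siControl with DMSO is tested below. At that border of the order, Dox in sgAAVS1 cells and siIGF2BP2 lay within their SD. The only neighbours to differ by more than their SD were siControl in sgIGF2BP2 cells and siIGF2BP3. In sgAAVS1 cells CREB3L2 was at 91.1 ± 2.85 CPM with DMSO and 87.1 ± 1.99 CPM with Dox (log2 interval −0.15 to 0.02), and after Dox and siIGF2BP3 in sgIGF2BP3 cells its intervals were −0.06 to 0.11 and −0.16 to 0.02.

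The proteases MBTPS1 and MBTPS2, which act in sequence on ATF6, CREB3L2 and the sterol factors SREBF1 and SREBF2, both fell after siIGF2BP2. MBTPS1 stood at 110.3, 108, 113 and 109 CPM with siControl and at 89.9, 93.4, 90.4 and 94.5 CPM with siIGF2BP2. The 4 siIGF2BP2 libraries were the only ones of the 40 under 100 CPM, and MBTPS1 fell by 0.26 on the log2 scale, or fell by 16.3% (SE 0.0373, edgeR adjusted p = 5.45e-08). MBTPS2 stood at 17.9, 13.8, 14.9 and 11.8 CPM with siControl and at 10.8, 8.85, 11.2 and 11.2 CPM with siIGF2BP2. The siControl group was wide, from 11.8 to 17.9 CPM, and still lay above every siIGF2BP2 library, and MBTPS2 fell by 0.49 on the log2 scale, or fell by 28.6% (SE 0.10, edgeR adjusted p = 0.000134). Both calls were kept in all 14 alternatives, where the log2 fold change of MBTPS2 ran from −0.57 to −0.36. Exon bases shared with YY2 limit what can be said of MBTPS2 alone.

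Neither protease passed the test after Dox or after loss of IGF2BP3. MBTPS1 stood at 107, 112, 110.0 and 107 CPM with DMSO and 108, 102, 106 and 102 CPM with Dox in sgIGF2BP2 cells (log2 interval −0.13 to 0.02), and its means in the sgAAVS1 line were 110.2 ± 4.29 and 108 ± 4.67 CPM (SD, n = 4). In sgIGF2BP3 cells the siIGF2BP3 libraries, 107, 112, 110.3 and 111 CPM, all lay below the siControl libraries, 113, 112, 115 and 118 CPM. With DMSO and Dox that line stood at 109.7 ± 2.31 and 109 ± 3.19 CPM. The siRNA difference was −0.06 and missed the threshold (edgeR adjusted p = 0.552). MBTPS2 stood at 12.4, 13.4, 14.02 and 13.6 CPM with DMSO and 15.5, 16.9, 13.3 and 13.3 CPM with Dox in sgIGF2BP2 cells, with a wide log2 interval of −0.05 to 0.35. Its intervals after Dox and siIGF2BP3 in sgIGF2BP3 cells, −0.19 to 0.22 and −0.26 to 0.15, are too wide to show that it kept its level. Its means there were 14.4 ± 1.797, 14.5 ± 2.35, 14.9 ± 1.06 and 14.3 ± 1.25 CPM with DMSO, Dox, siControl and siIGF2BP3, and 13.2 ± 1.06 and 13.98 ± 0.774 CPM in sgAAVS1 cells without and with Dox. For each protease the siIGF2BP2 group lay below its neighbour in the order of means with no overlap, and no other neighbours differed by more than their SD.

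EIF2AK3, the PERK sensor and the scarcest of the 10, passed the test once, after Dox in the sgAAVS1 line. It stood at 8.41, 6.57, 8.62 and 6.89 CPM with DMSO and at 9.11, 9.81, 9.12 and 9.55 CPM with Dox. All Dox libraries lay above all DMSO libraries (log2 fold change 0.31, SE 0.11, edgeR adjusted p = 0.0437). The call was lost with DESeq2 (adjusted p = 0.0544), in edgeR with the GC and length offset (adjusted p = 0.0629) or with no filter on low counts (adjusted p = 0.0638), and on leaving out 1 of 6 libraries. Those last edgeR values were 0.24 with adjusted p = 0.181 without DMSO replicate 2, 0.26 with adjusted p = 0.129 without DMSO replicate 4, 0.33 with adjusted p = 0.0637 without Dox replicate 1, 0.29 with adjusted p = 0.098 without Dox replicate 2, 0.32 with adjusted p = 0.0587 without Dox replicate 3 and 0.30 with adjusted p = 0.0881 without Dox replicate 4. In sgIGF2BP2 cells it stood at 8.77, 6.95, 7.25 and 6.88 CPM with DMSO and at 9.12, 9.01, 7.52 and 8.39 CPM with Dox, overlapping groups with a log2 fold change of 0.21 and an interval of −0.01 to 0.43. Its means were 8.38 ± 0.724 and 8.29 ± 1.17 CPM with siControl and siIGF2BP2, and 8.85 ± 1.21, 8.57 ± 0.859, 7.704 ± 0.543 and 8.55 ± 0.459 CPM with DMSO, Dox, siControl and siIGF2BP3 in sgIGF2BP3 cells. The intervals for siIGF2BP2, for Dox in sgIGF2BP3 and for siIGF2BP3 were −0.24 to 0.19, −0.27 to 0.16 and −0.06 to 0.39. No neighbours in the order of its 10 group means, from 7.46 ± 0.889 to 9.39 ± 0.344 CPM (SD, n = 4), differed by more than their SD.

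PPP1R15A, the eIF2 phosphatase adaptor that is a known target of ATF4 and CHOP, was the most abundant of the 10 and rose in 3 of the 5 treatments. In sgIGF2BP2 cells it stood at 252, 272, 262 and 261 CPM with DMSO and at 296, 331, 321 and 293 CPM with Dox. The lowest Dox library was above the highest DMSO library, a log2 rise of 0.25 or 18.6% (SE 0.0338, edgeR adjusted p = 5.01e-08). It also rose after siIGF2BP2, from 263, 274, 279.8 and 279 CPM with siControl to 320.0, 327, 331 and 309 CPM. Again the groups did not overlap, and the rise was 0.23 or 17.5% (SE 0.0336, edgeR adjusted p = 4.80e-08). A smaller rise came with Dox in sgAAVS1 cells, from 252, 252, 259 and 253 to 265, 285, 286 and 277 CPM (0.13, SE 0.0341, edgeR adjusted p = 0.00484). All 3 calls were kept in every one of the 14 alternatives. The Dox effect in sgIGF2BP2 cells exceeded that in sgAAVS1 cells by 0.12 (95% interval 0.02 to 0.21), which did not pass (edgeR adjusted p = 0.13).

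In sgIGF2BP3 cells PPP1R15A stood at 241, 247, 248 and 243 CPM with DMSO and at 250.3, 247, 252 and 252 CPM with Dox (log2 interval −0.04 to 0.10). It stood at 273, 290.4, 282 and 279 CPM with siControl and at 263, 271, 274 and 262 CPM with siIGF2BP3. The last difference, −0.07, went the other way from siIGF2BP2 and is the one gene of the 10 with an unadjusted edgeR p under 0.05 for siIGF2BP3 (adjusted p = 0.312). The order of its 10 group means was led by siIGF2BP2 and Dox in sgIGF2BP2 cells, 322 ± 9.77 and 310.5 ± 18.7 CPM (SD, n = 4). Both lay apart from the next group, siControl in sgIGF2BP3 cells at 281 ± 7.16 CPM, whose libraries did not overlap those of Dox in sgIGF2BP2 cells.

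**Figure D4:**
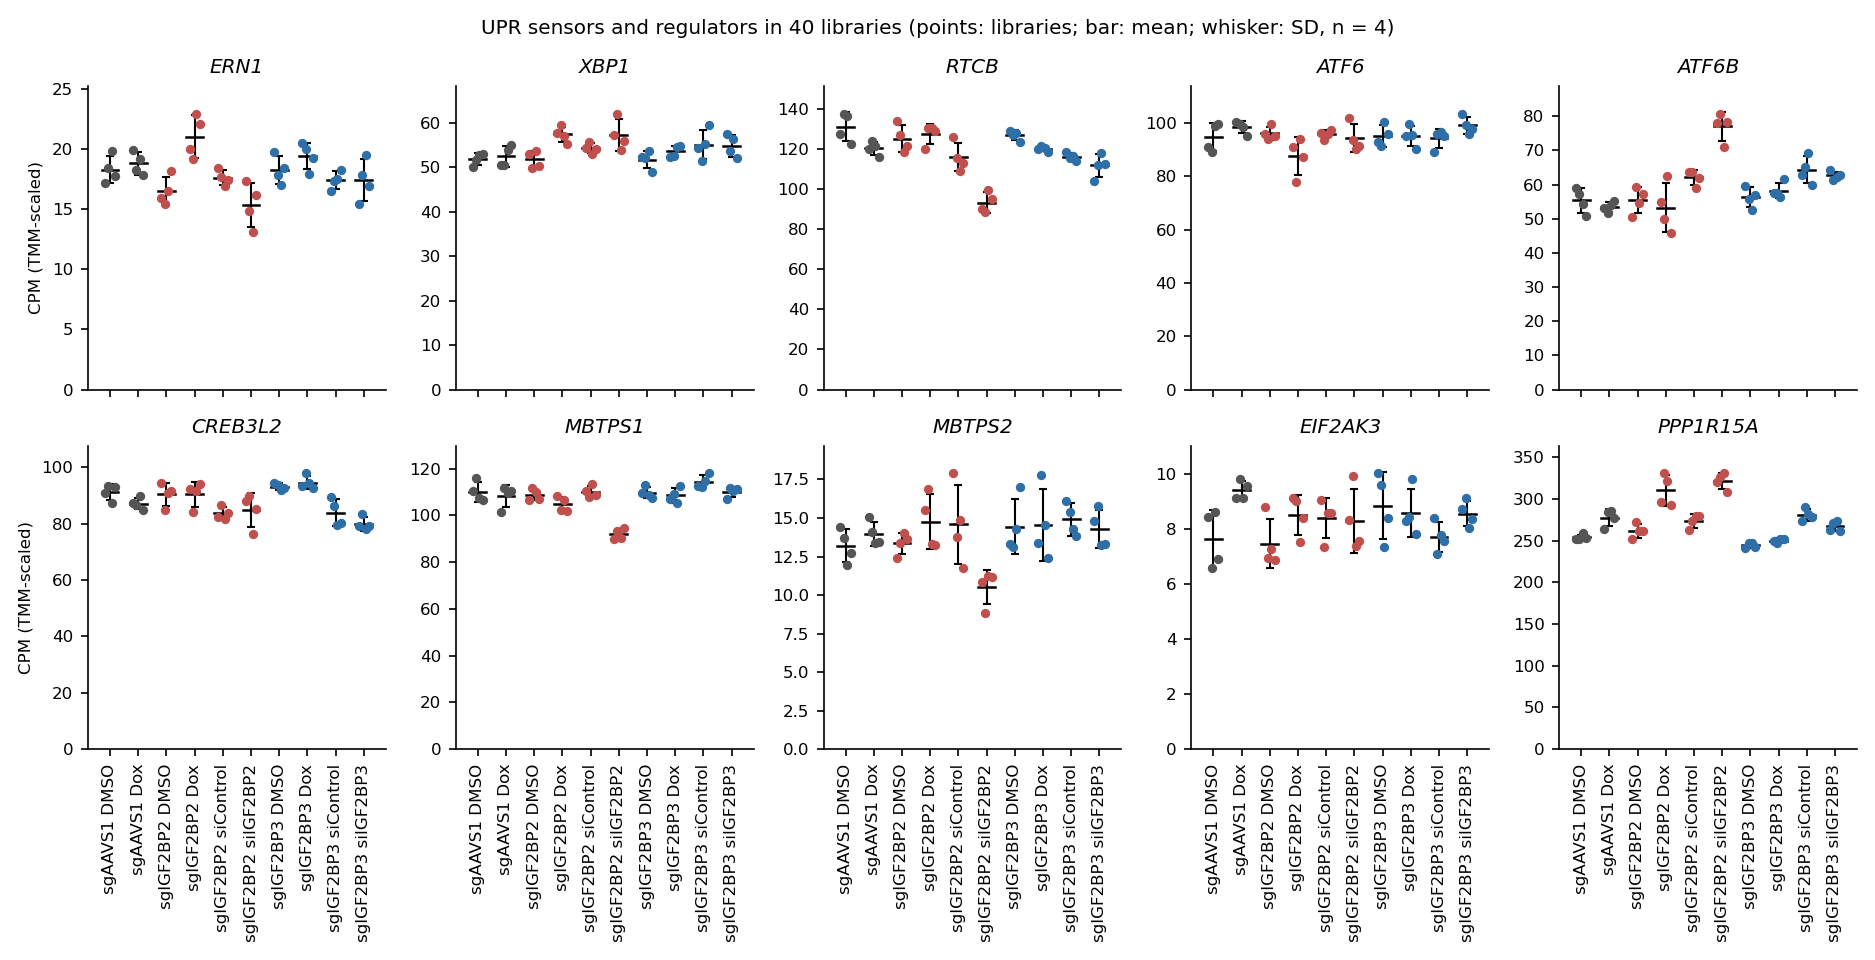
TMM-scaled CPM of the 10 genes in all 40 libraries (points) by group, with the mean as a bar and the SD over 4 libraries as a whisker, each panel starting at 0 on its own scale. The siIGF2BP2 group has the lowest mean for RTCB, MBTPS1 and MBTPS2 and the highest for ATF6B and PPP1R15A, while ERN1 is highest with Dox in the same line.

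The differences between effects were tested themselves, because a call in 1 group and none in another does not show that they differ. The effect of siIGF2BP3 minus that of siIGF2BP2 passed for 5 of the 10 genes (3 higher, 2 lower), beside 18.7% of all tested genes. RTCB gave 0.26 (edgeR adjusted p = 0.0012), MBTPS1 0.20 (adjusted p = 0.0033), ATF6B −0.35 (adjusted p = 0.000617) and PPP1R15A −0.31 (adjusted p = 1.03e-06). These 4 were kept in all 22 alternatives. The fifth, MBTPS2, gave 0.43 (edgeR adjusted p = 0.0268), and its values on leaving out a library were 0.30 with adjusted p = 0.151 without sgIGF2BP2 siControl replicate 1, 0.36 with adjusted p = 0.0852 without sgIGF2BP2 siIGF2BP2 replicate 2, 0.40 with adjusted p = 0.0566 without sgIGF2BP3 siControl replicate 4 and 0.38 with adjusted p = 0.0794 without sgIGF2BP3 siIGF2BP3 replicate 2. For ERN1 the difference was 0.20 (95% interval −0.02 to 0.42) and did not pass. The siRNA pools also lowered the RNA of their targets to different degrees: IGF2BP2 fell by 72.1% and IGF2BP3 fell by 85.4%. Each pool was given only in its own line, against the siControl group of that line, so pool and line cannot be told apart.

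The 2 routes of depletion within a line were compared after the data were seen. In sgIGF2BP2 cells the siRNA effect minus the Dox effect passed for 5 of the 10 (1 higher, 4 lower), beside 26.1% of all tested genes, and all 5 were kept in 22 of 22 alternatives. ERN1 differed by −0.54 (SE 0.11, edgeR adjusted p = 9.21e-05), having risen with Dox and fallen with siRNA. The fall alone lost its call in 5 of 14 alternatives. MBTPS2 differed by −0.64 (adjusted p = 0.00046), RTCB by −0.35 (adjusted p = 6.49e-06), MBTPS1 by −0.20 (adjusted p = 0.00239) and ATF6B by 0.38 (adjusted p = 0.000149). For PPP1R15A, which rose by both routes, the difference was −0.01 with an interval of −0.11 to 0.08. For ATF6, called after Dox only, it was 0.12 with an interval of −0.005 to 0.25, which did not pass (edgeR adjusted p = 0.157). In sgIGF2BP3 cells the same difference passed for 0 of the 10, beside 1.36% of all tested genes (DESeq2 0 of the 10). At an unadjusted edgeR p under 0.05 it gave 1 of the 10, beside 12.268% of all tested genes. The routes also differ in time, 72 hours against 48, in transfection and in their control group, and these cannot be told apart from the route. IGF2BP2 RNA itself fell by 60.5% after Dox and fell by 72.1% after siRNA. Protein was not measured here, so these values do not rank the routes by loss of protein.

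Against the Dox effect in the sgAAVS1 line, that in sgIGF2BP2 cells differed for 1 of the 10 genes, beside 6.97% of all tested genes. ATF6 gave −0.20 (edgeR adjusted p = 0.0379). It lost the call in 10 of 22 alternatives, among them the offset for GC content and length (−0.15, adjusted p = 0.0889). Leaving out 1 of 8 libraries lost it, with edgeR values of −0.18 with adjusted p = 0.0875 without sgAAVS1 DMSO replicate 1, −0.17 with adjusted p = 0.116 without sgAAVS1 DMSO replicate 2, −0.19 with adjusted p = 0.0793 without sgAAVS1 Dox replicate 1, −0.20 with adjusted p = 0.0583 without sgAAVS1 Dox replicate 2, −0.20 with adjusted p = 0.0571 without sgAAVS1 Dox replicate 3, −0.20 with adjusted p = 0.0564 without sgIGF2BP2 DMSO replicate 1, −0.18 with adjusted p = 0.108 without sgIGF2BP2 DMSO replicate 3 and −0.14 with adjusted p = 0.153 without sgIGF2BP2 Dox replicate 2. In sgIGF2BP3 cells the difference passed for 0 of the 10, beside 7.78% of all tested genes (DESeq2 0 of the 10). At an unadjusted edgeR p under 0.05 it gave 1 of the 10, beside 23.25% of all tested genes. That gene was EIF2AK3, at −0.37 (95% interval −0.68 to −0.06, adjusted p = 0.13). Both contrasts subtract the same sgAAVS1 libraries.

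The control groups were also compared with each other, between lines and between siControl and DMSO. The lines without induced loss gave no call among the 10 genes, with 0 passing between sgIGF2BP2 and sgAAVS1 cells with DMSO, between sgIGF2BP3 and sgAAVS1 cells with DMSO, or between sgIGF2BP3 and sgIGF2BP2 cells with siControl. In each of the 3, 0.0175% of all tested genes passed. At an unadjusted edgeR p under 0.05 the counts of the 10 were 0, 1 and 0, beside 6.318%, 11.612% and 5.898% of all tested genes. DESeq2 called 0 of the 10 in all 3.

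The siControl group differed from the DMSO group of its line for 1 of the 10 genes in sgIGF2BP2 cells, beside 18.4% of all tested genes, and for 4 (2 higher, 2 lower) in sgIGF2BP3 cells, beside 19.4%. ATF6B was higher in both lines, by 0.17 (edgeR adjusted p = 0.0254) and 0.19 (adjusted p = 0.00957). In sgIGF2BP2 cells that value was 0.13 with adjusted p = 0.121 without DMSO replicate 1, 0.16 with adjusted p = 0.0712 without DMSO replicate 3, 0.15 with adjusted p = 0.0757 without siControl replicate 1 and 0.16 with adjusted p = 0.0706 without siControl replicate 2. In sgIGF2BP3 cells it was 0.16 with adjusted p = 0.0512 without DMSO replicate 3 and 0.16 with adjusted p = 0.0649 without siControl replicate 3. In sgIGF2BP3 cells PPP1R15A was higher by 0.20 (edgeR adjusted p = 5.58e-06) and CREB3L2 at −0.15 (adjusted p = 0.00743), with no overlap of libraries for either. RTCB was at −0.13 (edgeR adjusted p = 0.0242), and its call was lost at −0.12 with adjusted p = 0.0653 without DMSO replicate 1, −0.12 with adjusted p = 0.0571 without DMSO replicate 3, −0.13 with adjusted p = 0.0594 without siControl replicate 2 and −0.12 with adjusted p = 0.0675 without siControl replicate 4. In sgIGF2BP2 cells PPP1R15A gave 0.06, CREB3L2 −0.11 and RTCB −0.10, none of which passed. CREB3L2 was near the threshold there (edgeR adjusted p = 0.0558) and was called under 6 of 14 alternatives, and RTCB (adjusted p = 0.079) under 2. Whether the siControl effect differed between the lines was not tested. The transfection, the siRNA itself and any difference in culture time cannot be told apart here. These contrasts share their control libraries with the treatment comparisons.

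The wider pathway was described by lists of partners and targets, whose shares of called genes are set beside those of all tested genes. The lists were chosen with earlier results of these data known, and the tested genes were not matched to them for level. Of 14 tested IRE1 and RTCB partners, Dox in sgIGF2BP2 cells raised 1 and lowered 2: DNAJB9, an ER chaperone that holds IRE1 inactive, rose from 15.8 ± 1.32 to 19.3 ± 1.64 CPM (0.31, edgeR adjusted p = 0.00419), while DDX1, a subunit of the RTCB ligase complex, fell from 143 ± 5.77 to 126 ± 8.46 CPM (−0.18, adjusted p = 0.000793). The 3 calls are 21.4% of the list, near the 20.4% of all tested genes. After siIGF2BP2 2 rose and 3 fell (35.7%, beside 36.8%). MAP3K5 (ASK1), a kinase downstream of IRE1, fell from 12.8 ± 0.189 to 9.45 ± 0.981 CPM (−0.44, edgeR adjusted p = 0.00015), and TRPT1, a tRNA phosphotransferase, rose from 27.1 ± 0.335 to 31.7 ± 1.25 CPM (0.23, adjusted p = 0.0036). SEL1L, an adaptor of ER-associated degradation, was the 1 call in sgAAVS1 cells, 7.14% of the list beside 15.9% (log2 fold change 0.21, edgeR adjusted p = 0.00493), and 0 passed after either IGF2BP3 depletion. The list medians lay between −0.03 and 0.06 in the 5 treatments. Of 7 tested mRNAs reported as IRE1 decay substrates, 3 rose and 0 fell after siIGF2BP2 (42.9%, beside 36.8%), among them SCARA3 (0.27, adjusted p = 3.87e-06) and PDK2 (0.42, adjusted p = 2.63e-05). After Dox in the same line SCARA3 fell (−0.33, edgeR adjusted p = 7.13e-07) and COL6A1 rose (0.30, adjusted p = 2.18e-05), which were 28.6% of the list beside 20.4%.

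Target genes of the arms moved in both directions. Of 24 XBP1 and ATF6 target genes, 3 rose and 10 fell after siIGF2BP2, with a median of −0.07 beside 0.01 for all genes. These calls are 54.2% of the list, beside 36.8% of all tested genes. PDIA6, an ER disulfide isomerase, fell from 523 ± 6.42 to 443 ± 13.1 CPM (−0.24, edgeR adjusted p = 2.01e-10), and EDEM2, a mannosidase of ER-associated degradation, rose from 30.00 ± 1.04 to 35.3 ± 2.92 CPM (0.24, adjusted p = 0.00155). After Dox in sgIGF2BP2 cells 1 rose and 4 fell (20.8%, near the 20.4% of all tested genes), the rise being HERPUD1, a scaffold of the same degradation pathway (0.24, edgeR adjusted p = 0.00311). Among the 4 falls was SEC24D, with overlapping libraries (−0.20, edgeR adjusted p = 0.00788). In sgAAVS1 cells 2 rose and 4 fell (25%, beside 15.9%). In the sgIGF2BP3 line 1 fell with each depletion (4.17%, beside 2.64% after Dox and 2.34% after siRNA): SSR3 of the translocon after Dox (−0.13, edgeR adjusted p = 0.0138) and EDEM1 after siRNA (−0.24, adjusted p = 0.000325). Of 9 tested factors and protease partners, 4 rose and 3 fell after siIGF2BP2 (77.8%, beside 36.8%), SREBF1 rising from 168 ± 2.78 to 205 ± 6.03 CPM (0.28, edgeR adjusted p = 4.63e-09). SREBF2 was the 1 call of the 9 after siIGF2BP3 (11.1%, beside 2.34%), falling from 272 ± 7.58 to 232 ± 7.05 CPM (−0.23, adjusted p = 3.24e-06).

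Around PERK, 15 tested ATF4 and CHOP target genes had medians of opposite sign under the 2 IGF2BP2 routes. After Dox 5 rose and 3 fell (53.3%, beside 20.4% of all tested genes), with a median of 0.29 beside 0.01 for all genes. DDIT4, an inhibitor of mTORC1, rose from 4.02 ± 0.141 to 7.53 ± 1.12 CPM (0.93, edgeR adjusted p = 7.47e-07). SESN2, a stress-induced leucine sensor, rose from 7.54 ± 2.19 to 11.3 ± 2.095 CPM with overlapping libraries (0.59, edgeR adjusted p = 0.000125). Which signal moved these genes was not tested. DDIT4 also rose in sgAAVS1 cells (0.60, edgeR adjusted p = 0.00459), where 1 of the list rose and 2 fell (20%, beside 15.9%). After siIGF2BP2 2 rose and 4 fell (40%, near the 36.8% of all tested genes), with a median of −0.09. ERO1A, the oxidase that recharges ER disulfide isomerases, fell from 166 ± 3.25 to 100.3 ± 4.297 CPM (−0.73, edgeR adjusted p = 5.50e-25), and the pseudokinase TRIB3 fell from 67.2 ± 3.43 to 49.3 ± 3.27 CPM (−0.45, adjusted p = 4.89e-11). In the siRNA effect minus the Dox effect, 1 of the 15 was higher and 8 were lower (60%, beside 26.1%), with a median of −0.49. ERO1A was also the 1 call of the list after each IGF2BP3 depletion (6.67%, beside 2.64% after Dox and 2.34% after siRNA). It fell by smaller amounts there, at −0.14 after Dox (edgeR adjusted p = 0.0323) and −0.14 after siIGF2BP3 (edgeR adjusted p = 0.0239). Of 19 genes of the eIF2 kinase branch, 2 rose and 4 fell after siIGF2BP2 (31.6%, beside 36.8%), and 0 rose and 2 fell after siIGF2BP3 (10.5%, beside 2.34%). The latter were EIF2AK4 (GCN2), another eIF2 kinase, which fell from 104 ± 5.23 to 84.9 ± 1.63 CPM (−0.29, edgeR adjusted p = 1.21e-06), and PPP1R15B, the constitutive counterpart of PPP1R15A, which fell from 70.6 ± 4.599 to 57.6 ± 3.86 CPM (−0.29, adjusted p = 0.000246).

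The genes whose 10 group means were most like those of each member, by Pearson's r of mean log2 CPM among 9948 tested genes, are given as a description only, since the groups share lines and control libraries. For ERN1 they were PLEKHO2 (r = 0.9781) and CNST (r = 0.9496), for XBP1 HLA-C (r = 0.9549) and CCDC78 (r = 0.9541), and for RTCB NSFL1C (r = 0.9776) and MALSU1 (r = 0.9737). For ATF6 they were MELK (r = 0.9534) and SP1 (r = 0.931), for ATF6B TNFRSF13C (r = 0.9876) and SH2B1 (r = 0.9822), and for CREB3L2 MEN1 (r = 0.9353) and MIDN (r = 0.9303). MBTPS1 was followed most closely of all by TFRC, the transferrin receptor (r = 0.995), and by PRDX3 (r = 0.9843), and MBTPS2 by SLC35D1 (r = 0.9784) and UBP1 (r = 0.9687). EIF2AK3 had the weakest second match, MCTP2 (r = 0.948) and PEAK1 (r = 0.8819), and PPP1R15A had JMJD1C (r = 0.9436) and EVI5L (r = 0.9416). The members themselves were left out of the search.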

How the data were processed

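The authors deposited raw counts of reads per gene for 40 libraries in 1 table, 4 libraries from separate wells for each of 10 groups. Reads were handled with bcl2fastq 2.20.0.422 and STAR 2.7.5c on the hg38 build, per the submitters' processing notes. The counting program, its annotation and its strand setting are not given in the sources used here. The library kit marked strand, per the labels' protocols. The deposited counts were used unchanged: edgeR 4.0.16 (R 4.3.3, limma 3.58.1) kept genes with its filter by group, scaled libraries by TMM, fitted 1 coefficient per group over all 40 libraries and tested contrasts by quasi-likelihood F tests, with Benjamini-Hochberg adjustment over 11428 genes and calls at an adjusted p under 0.05. CPM are TMM-scaled, and intervals are 95%. The p-values measure the spread between wells, which may be technical. Total counts ran from 10018181 to 24822807 (median 13470000), and counting error is largest for the genes with the fewest counts.

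All 10 members are named. From each partner or target list, up to 2 called genes per treatment with the greatest absolute log2 fold change and a mean log2 CPM of at least 2 could be named. Similar patterns are the 2 genes with the highest r over group means. Members and lists were chosen with earlier results of these data known. Of 15 comparisons, 13 were planned and 2, between siRNA and Dox effects, were added after seeing the data. Alternatives were DESeq2 1.42.0 (with its own size factors), RLE scaling, no filter, the compared groups alone, a GC and length offset, a replicate block and leaving out each library. Scripts were tested on simulated data. Tables and plots used Python 3.11.15, pandas 2.3.3, scipy 1.17.1 and matplotlib 3.10.9. Positions came from GENCODE 29 and promoters from RefSeq.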

Additional observations from a re-analysis of the deposited data

Results flagged for a closer look

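A library far from the other 3 of its group was found in 2 of 100 combinations of gene and group, where chance alone gives about 1 in 20, or 5. RTCB stood at 120.0 CPM in sgIGF2BP2 Dox replicate 1, below 128.9 to 130.6 CPM in the others. ATF6 stood at 89.22 CPM in sgIGF2BP3 siControl replicate 1, below 95.36 to 96.59 CPM in the others.

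Effects that differed between lines or routes in edgeR's test of the difference itself were the following log2 values. The Dox effect on ATF6 in sgIGF2BP2 cells minus that in sgAAVS1 cells was −0.20. The siIGF2BP3 effect minus the siIGF2BP2 effect was 0.26 for RTCB, 0.20 for MBTPS1, 0.43 for MBTPS2, −0.35 for ATF6B and −0.31 for PPP1R15A. The siIGF2BP2 effect minus the Dox effect in sgIGF2BP2 cells was −0.54 for ERN1, −0.35 for RTCB, −0.20 for MBTPS1, −0.64 for MBTPS2 and 0.38 for ATF6B.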

How the results depend on the processing

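Of 150 combinations of gene and comparison, 29 were called, 19 of them under every alternative run, 10 were lost under at least 1 and 0 reversed, and 6 of the 121 others were called under at least 1 alternative, CREB3L2 for siControl against DMSO in sgIGF2BP2 cells most often (6). The share of all tested genes called in each comparison is given above. How many of all tested genes kept their calls was not counted, so these numbers do not set the 10 genes apart. Among the 10 genes, the count for siControl against DMSO in sgIGF2BP2 cells went from 1 to 2 with the GC and length offset, with DESeq2 and with only the groups compared. That for the Dox effect in sgIGF2BP2 cells minus that in sgAAVS1 cells went from 1 to 0 with the offset and with only the groups compared, and that for sgIGF2BP3 cells from 0 to 1 with the offset. Leaving out 1 library gave 1 to 3 called genes of the 10 for Dox in sgAAVS1 cells, 2 to 4 for Dox in sgIGF2BP2 cells, 0 to 2 for siControl against DMSO in sgIGF2BP2 cells, 2 to 4 in sgIGF2BP3 cells, and 0 to 2 for the Dox difference between sgIGF2BP2 and sgAAVS1. In that order, the same runs called 1293 to 2002, 1857 to 2180, 1679 to 1882, 1701 to 2024 and 534 to 1161 of all tested genes. Over all tested genes, Dox in sgIGF2BP3 cells called 302 and, with only the groups compared, 477 (108 to 285 without 1 library). The siIGF2BP3 effect called 267, 456 with the offset and 465 with only the groups compared. The Dox effect in sgIGF2BP3 minus that in sgAAVS1 called 889 and 385 with the offset (428 to 1415 without 1 library), and the siIGF2BP3 effect minus the Dox effect 155, 234 with the offset and 284 with only the groups compared. The lines under DMSO called 2 each: sgIGF2BP2 4 with no filter (1 to 2 without 1 library), and sgIGF2BP3 35 with no filter, 4 with DESeq2 and 4 with only the groups compared (1 to 74 without 1 library). The siControl comparison of lines called 2, 13 with no filter and 4 with only the groups compared (0 to 6 without 1 library). The cause of these shifts was not tested.

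Replicate numbers are shared by the groups, but were not taken to pair the libraries, since no label says so. The deviations of same-numbered libraries from their group means correlated at a mean of 0.03 (range −0.35 to 0.24 over 180 pairs, 23 of them over 0.1), beside −0.01 for different numbers. By mean correlation 23 of 40 libraries were closest to their own number, where 10 would be if the numbers carried nothing, a hint from the data and not from the design. With a replicate block the count for siControl against DMSO in sgIGF2BP2 cells went from 1 to 2 of the 10 genes, and the line comparisons from 2 to 6 genes (sgIGF2BP3, DMSO) and from 2 to 5 (siControl). The block left the count of the 10 genes as it was in the other comparisons. Depth limits EIF2AK3 (75 to 178 counts per library), MBTPS2 (115 to 351) and ERN1 (169 to 406), whose intervals are the widest.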
